A study of Mus musculus with 2 samples.

Results

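The vascular endothelial growth factor (VEGF) genes described here are 4 ligand genes, Vegfa, Vegfb, Vegfc and Pgf, 3 tyrosine kinase receptor genes, Kdr, Flt1 and Flt4, and the neuropilin genes Nrp1 and Nrp2. They were taken by their mouse gene symbols, and make up 9 of the 43346 mouse genes and 33 of the 103639 mouse transcripts quantified. The rule used no measured value. The study is an RNA-seq survey of lung tissue from C57BL/6J mice aged 8 weeks, in which male and female littermates were pooled. It has 1 group of 2 libraries, replicate 1 and replicate 2, from separate tissue samples that carry 1 donor record, and the number of animals is not given in the labels. The libraries were stranded, held poly-A+ RNA over 200 nucleotides, and were read from both ends for 76 bases. With 1 group there is no treated or mutant sample, so levels, transcript forms and the spread between the libraries are described and no test was run.

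VEGF ligands are secreted dimers that bind tyrosine kinase receptors on endothelial cells. Kdr (VEGFR2) passes on most of the signal for growth and permeability of blood vessels, Flt1 (VEGFR1) binds Vegfa, Vegfb and Pgf and largely holds Vegfa back from Kdr, and Flt4 (VEGFR3) answers Vegfc in lymphatic vessels. Neuropilins are co-receptors that also bind class 3 semaphorins. In the lung the alveolar epithelium is a well-known source of Vegfa, beside a dense capillary bed that carries Kdr.

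All 9 genes were detected, meaning a TPM of at least 1 (TPM is a level corrected for transcript length and library size) in both libraries. Gene counts summed to 48234745 in replicate 1 and 44182836 in replicate 2, and the members held between 127 and 56571 reads per library. The alveolar type 2 gene Sftpc had 22806 TPM in replicate 1 and 22331 TPM in replicate 2 and the endothelial gene Cdh5 had 501 and 479 TPM, so defining genes of lung were present in both. The libraries differed in several lists of genes of tissues other than lung. The 5 heart muscle genes were an exception, summing to 821 TPM in replicate 1 and 767 TPM in replicate 2. The 5 squamous epithelium genes summed to 3858 TPM in replicate 1 and 1.29 TPM in replicate 2, the 5 skeletal muscle genes to 2689 and 55.8 TPM, and the 4 brown fat genes to 280 and 48.9 TPM. The 4 red cell genes summed to 21922 TPM in replicate 1 and 61268 TPM in replicate 2, and the 5 intestine and pancreas genes to 3.76 and 194 TPM. In replicate 2, Ckm alone held 54.7 TPM of the skeletal muscle sum, and Cox8b alone 43.5 TPM of the brown fat sum. Krt6a, Tnnc2 and Myh8 of those lists were at 0 in replicate 2, and Sycn was at 0 in replicate 1. The part of such material in the members' values was not tested, and each value is given per library.

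Vegfa, the ligand that drives most vessel growth through Kdr, had 1228 TPM in replicate 1 and 968 TPM in replicate 2, from 56571 and 50441 reads. Its mean of 1098 ± 184 TPM (SD, n = 2) placed it at rank 77 of all genes, and 12.6 times above the next member. Vegfa (ENSMUSG00000023951.12) lies at chr17:46016993-46032369 on the minus strand (GRCm38, which is mm10). Vegfb, a ligand of Flt1, had 26.7 TPM in replicate 1 and 32.9 TPM in replicate 2. Vegfb (ENSMUSG00000024962.9) lies at chr19:6982473-6987651 on the minus strand. Vegfc, the ligand of Flt4 in lymphatic growth, had 5.52 TPM in replicate 1 and 6.60 TPM in replicate 2. It lies at chr8:54077606-54187096 on the plus strand. Pgf, the placental growth factor that binds Flt1 but not Kdr, was the lowest member, with 3.05 TPM in replicate 1 and 2.62 TPM in replicate 2. It lies at chr12:85166635-85177790 on the minus strand.

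Vegfa made up 97.2% of the summed ligand TPM in replicate 1 and 95.8% in replicate 2. Vegfb made up 2.11% and 3.26%, Vegfc 0.437% and 0.654%, and Pgf 0.241% and 0.259%. Vegfd, the second ligand of Flt4 and not a member, had 20.95 TPM in replicate 1 and 13.0 TPM in replicate 2. It thus stood above Vegfc in both libraries. Adding it lowered the mean share of Vegfa to 95.1%. The level of Vegfa also depends on the lengths of the transcripts its reads were assigned to. An alternative chosen after the data were seen divides the gene count by the length of the longest coding transcript. It gave Vegfa 462 TPM and 92.5% of the ligand sum, with Vegfa still the highest member. Nrp1 had 87.2 TPM in this way, so the lead of Vegfa over it was smaller than 12.6 times.

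Kdr had 93.8 TPM in replicate 1 and 66.55 TPM in replicate 2, from 18979 and 13173 reads. It lies at chr5:75932827-75978458 on the minus strand. Flt1 had 28.2 TPM in replicate 1 and 30.4 TPM in replicate 2, and lies on the same chromosome at chr5:147561604-147726011, minus strand. Flt4 had 24.8 TPM in replicate 1 and 29.8 TPM in replicate 2, and lies at chr11:49609263-49652739 on the plus strand. The library with more Kdr thus had less Flt1 and less Flt4 on the TPM scale. Kdr made up 63.9% of the summed TPM of the 3 receptors in replicate 1 and 52.5% in replicate 2. Kdr was 3.32 times Flt1 in replicate 1 and 2.19 times in replicate 2. In whole tissue, fewer cells of a type and less RNA per cell cannot be told apart.

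Nrp1, the co-receptor of Vegfa on blood vessels, had 96.4 TPM in replicate 1 and 78.0 TPM in replicate 2. It lies at chr8:128358604-128503363 on the plus strand. Nrp2, which is best known for lymphatic vessels and Vegfc, had 24.7 TPM in replicate 1 and 20.1 TPM in replicate 2. It lies at chr1:62703285-62818695 on the plus strand. The split between the neuropilins was nearly the same in both libraries, with Nrp1 at 79.6% of their sum in replicate 1 and 79.5% in replicate 2. Summed by role, the ligands had 1263 TPM in replicate 1 and 1010 TPM in replicate 2, the tyrosine kinase receptors 147 and 127 TPM, and the neuropilins 121 and 98.1 TPM.

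In the order of mean TPM, Vegfa came first, followed by Nrp1, Kdr, Vegfb, Flt1, Flt4, Nrp2, Vegfc and Pgf. Across the libraries, the values of Nrp1 and Kdr overlapped, as did those of Vegfb with Flt1 and of Flt1 with Flt4. These neighbours thus do not differ beyond the spread between libraries. Within each library, Nrp1 was above Kdr and Flt1 above Flt4, while Vegfb and Flt1 changed places between the libraries. The values of all other neighbours in the order did not overlap.

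**Figure D1:**
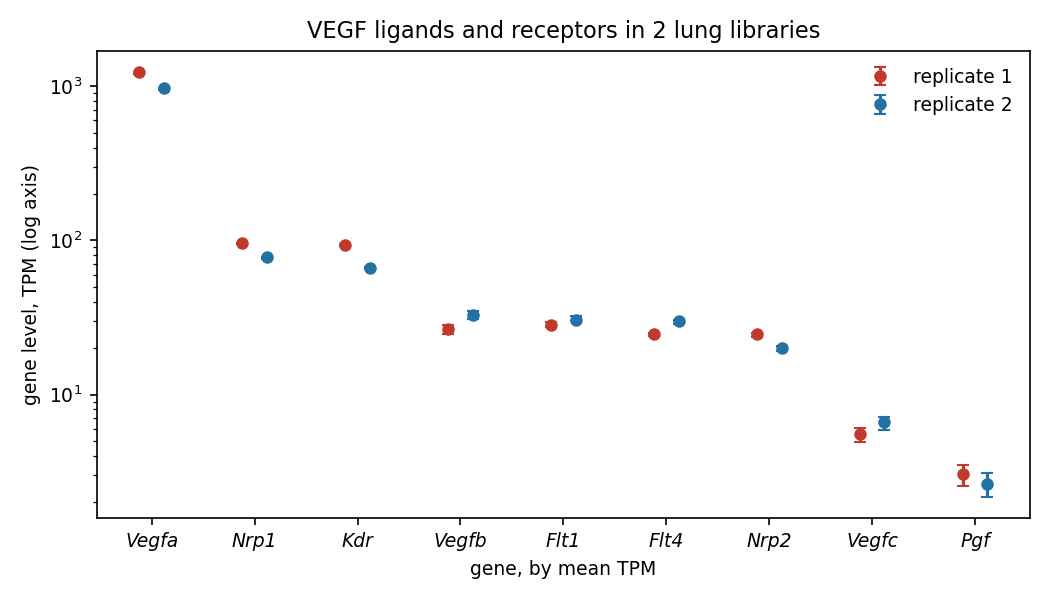
TPM of the 9 genes on a log axis, ordered by mean, with replicate 1 in red and replicate 2 in blue, and the interval the files give for each value as bars. Vegfa stands at 1228 and 968 TPM, Nrp1 and Kdr between 66.55 and 96.4 TPM, and Pgf lowest at 3.05 and 2.62 TPM.

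The ratio of the libraries was taken from counts scaled with edgeR's trimmed mean of M values (TMM), replicate 1 over replicate 2. None of the 9 members was 2-fold apart, where 6.66% of the 14708 genes tested were. The members' log2 ratios ran from -0.56 to 0.27 with a median of -0.10, and over all tested genes the median was 0.00 and the median size 0.28. Kdr had the highest ratio, 1.20-fold with a counting interval of 1.18 to 1.23. Vegfb had the lowest, 0.679-fold with an interval of 0.623 to 0.739. Flt4 was at 0.708-fold, Vegfc at 0.714-fold and Flt1 at 0.789-fold, each with an interval below 1. Vegfa was at 0.936-fold on this scale while its TPM was higher in replicate 1, so its direction depends on the scaling. The interval of Pgf, 0.778 to 1.27, and that of Nrp2, 0.983 to 1.07, both spanned 1. These intervals are 95% and cover counting error only, so they say nothing of the spread between lungs. Scaling by library size alone moved the median of all tested genes to 0.14, and taking TPM moved it to 0.21. The ratio of Vegfa by TPM was 0.34, against -0.10 from TMM-scaled counts, a wider move than that of the median gene.

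**Figure D2:**
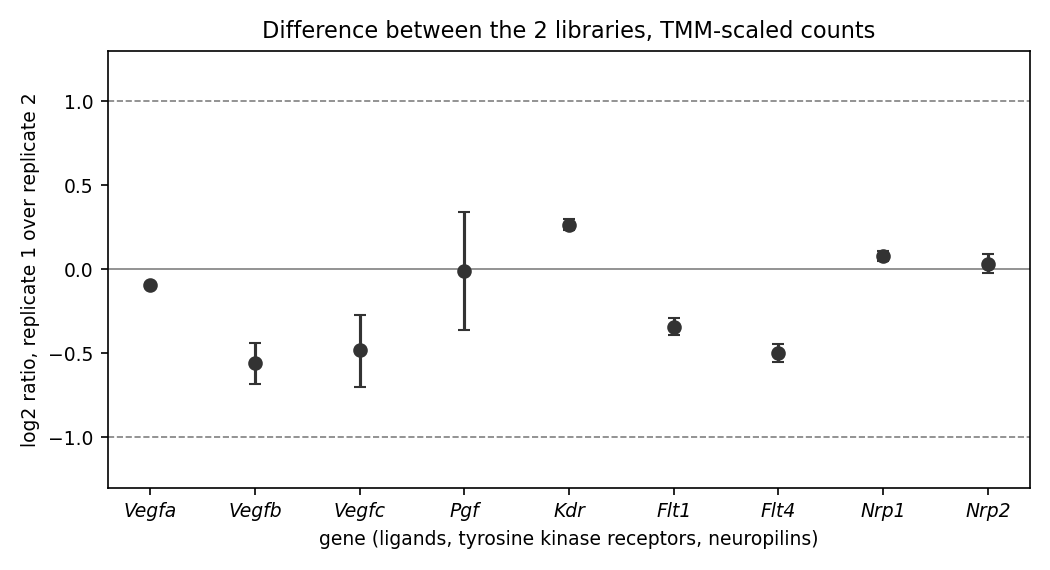
Log2 ratio of replicate 1 over replicate 2 for each member, from TMM-scaled counts, with 95% counting intervals as bars and 2-fold marked by dashed lines. All 9 points lie between -0.56 and 0.27, inside the dashed lines.

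The forms of Vegfa differ by which of exons 6 and 7 they hold between exon 5 and exon 8. Both exons encode basic stretches that bind heparan sulfate, so the form with both stays near the cell, the form with neither diffuses most freely, and the form with exon 7 alone lies between. Exon 6 (chr17:46022277-46022348) has 72 bases and exon 7 (chr17:46020991-46021122) has 132 bases. Both are shown because the Vegfa results turn on them. All sequences here are those of the GENCODE M21 transcripts on GRCm38, 5′ to 3′ on the gene's strand.
Vegfa exon 6: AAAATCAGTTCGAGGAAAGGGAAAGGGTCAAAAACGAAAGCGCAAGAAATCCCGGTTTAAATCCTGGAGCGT
Vegfa exon 7: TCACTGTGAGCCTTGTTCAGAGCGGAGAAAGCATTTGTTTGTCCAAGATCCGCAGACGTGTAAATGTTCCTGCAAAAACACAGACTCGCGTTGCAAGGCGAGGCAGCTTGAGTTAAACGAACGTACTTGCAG

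The 5 joins that tell the forms apart follow, with the 5′ exon in lower case and the start of the next exon in capitals. Exon 5 is 30 bases long and is shown whole.
Vegfa exon 5 to exon 6: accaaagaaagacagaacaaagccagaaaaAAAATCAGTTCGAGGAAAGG
Vegfa exon 5 to exon 7: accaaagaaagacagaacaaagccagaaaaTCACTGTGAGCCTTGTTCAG
Vegfa exon 5 to exon 8: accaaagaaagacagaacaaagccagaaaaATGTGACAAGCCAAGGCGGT
Vegfa exon 6 to exon 7: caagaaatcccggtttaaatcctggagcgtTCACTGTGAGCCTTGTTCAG
Vegfa exon 6 to exon 8: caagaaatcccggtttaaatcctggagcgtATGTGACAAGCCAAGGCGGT

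The deposited transcript table holds 11 Vegfa transcripts, and no form led in both libraries. Vegfa-203, which joins exon 6 to exon 8 and encodes 144 residues after the signal peptide, took 35.8% of the gene's TPM in replicate 1 and 19.3% in replicate 2. Vegfa-207, with both exons and 188 residues, took 9.28% in replicate 1 and 25.7% in replicate 2. Vegfa-202, with exon 7 alone and 164 residues, took 12.9% in replicate 1 and 5.22% in replicate 2. The transcripts with neither exon, Vegfa-201 and Vegfa-211, encode 120 residues and took 18.4% in replicate 1 and 27.4% in replicate 2. The 5 retained-intron transcripts summed to 23.7% in replicate 1 and 22.3% in replicate 2. The largest of them were Vegfa-205, with 7.25% and 4.82%, Vegfa-206, with 2.61% and 7.25%, and Vegfa-209, with 5.81% and 7.18%. Vegfa-204, with a shorter exon 6 and 182 residues, was at 0% in replicate 1 and 0.0248% in replicate 2. The form with both exons and the form with neither thus had higher shares in replicate 2, and the forms with exon 6 or exon 7 alone had higher shares in replicate 1. The SD of the coding-form shares reached 11.6 percentage points (n = 2).

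Vegfa-203 is the shortest coding Vegfa transcript, with 513 bases against 3451 for Vegfa-202. It held 8.52% of the gene's reads in replicate 1 and 3.97% in replicate 2. By reads, the forms with neither exon led, with 36.8% in replicate 1 and 47.5% in replicate 2. Exon 7 alone had 32.8% and 11.4%, and both exons 12.8% and 30.7%, so these forms changed places between the libraries. Unlike TPM, shares of reads are not corrected for transcript length.

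Reads across splice junctions give a second view of the same choice. They come from a junction list on build mm9 in which both libraries are pooled here, and the introns were recognised by their lengths and order. Of 521 reads leaving exon 5, 144 went to exon 6 (27.6%, exact 95% interval 23.8 to 31.7%), 234 to exon 7 (44.9%, 40.6 to 49.3%) and 143 to exon 8 (27.4%, 23.7 to 31.5%). Transcript TPM gave exon 6 as the next exon in 52.6% in replicate 1 and 57.6% in replicate 2, exon 7 in 22.2% and 11.04%, and exon 8 in 25.2% and 31.4%. The TPM shares of exon 8 thus lay within the interval of its junction share, while those of exons 6 and 7 lay outside theirs. The join of exon 6 to exon 8 had 10 of the 286 reads leaving exon 6 (3.50%, 1.69 to 6.34%), where transcript TPM put 75.1% in replicate 1 and 37.0% in replicate 2 on Vegfa-203. Reads entering exon 8 came from exon 7 in 1775 cases (92.1%), from exon 5 in 143 (7.42%) and from exon 6 in 10 (0.519%). By TPM, exon 8 was entered from exon 7 in 37.8% in replicate 1 and 48.5% in replicate 2, from exon 5 in 24.2% and 30.7%, and from exon 6 in 38.0% and 20.8%. No read joined the shorter exon 6 of Vegfa-204 to exon 7.

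Junction reads were uneven along the gene, with 510 entering exon 7 and 1775 leaving it, and from 144 to 10466 over the 7 introns of Vegfa-207. The 120-residue form is thus 27.4% of reads leaving exon 5 but 7.42% of reads entering exon 8. The join of exon 6 to exon 8 was the rarest on both counts. Why transcript TPM and junction reads differ was not tested.

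**Figure D3:**
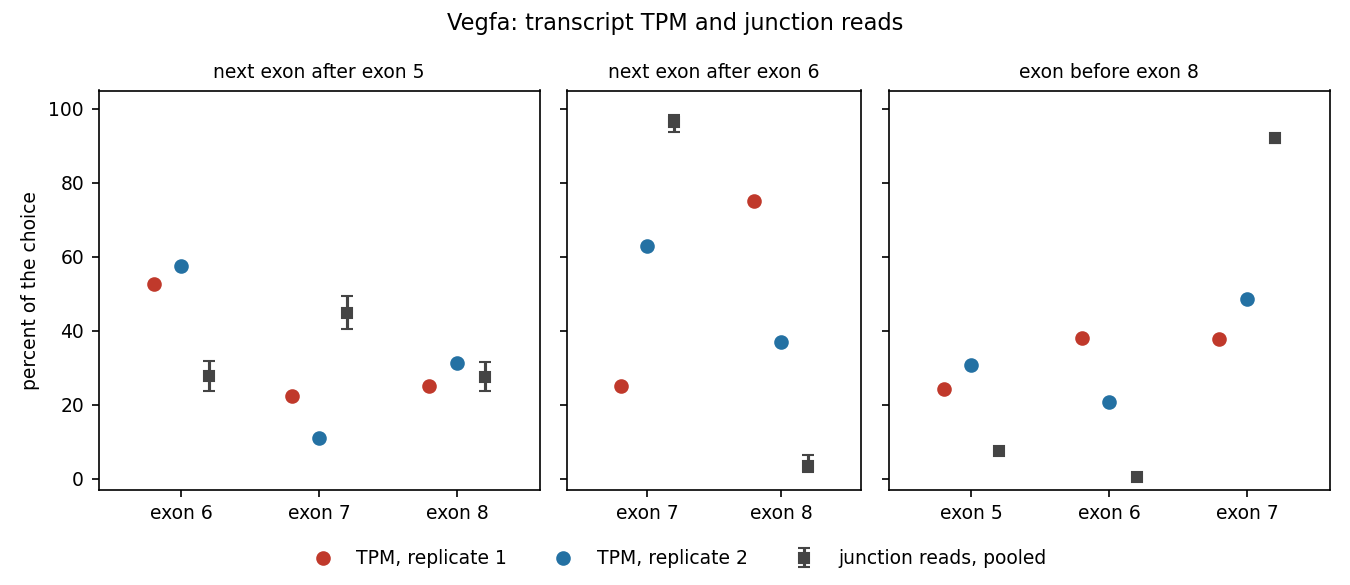
Share of each splice choice around Vegfa exons 5 to 8, in percent of that choice, from transcript TPM in replicate 1 (red) and replicate 2 (blue) and from pooled junction reads (grey squares, exact 95% intervals). After exon 6, exon 8 takes 75.1% and 37.0% by TPM and 3.50% by junction reads.

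Vegfb has 2 coding forms that differ in where exon 6 starts. The long exon 6 holds 101 more bases and shifts the reading frame, which turns the heparin-binding form of 167 residues (Vegfb-202) into the more diffusible form of 186 residues (Vegfb-201). The end of exon 5 is in lower case and the start of each exon 6 in capitals.
Vegfb long exon 6: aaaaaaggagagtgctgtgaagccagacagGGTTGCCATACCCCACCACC
Vegfb short exon 6: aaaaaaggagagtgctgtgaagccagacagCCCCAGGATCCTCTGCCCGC

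By TPM the long form took 56.6% of these coding forms in replicate 1 and 70.6% in replicate 2. Junction reads gave the long start in 160 of 267 (59.9%, 53.8 to 65.9%), between the shares of the libraries. Vegfc and Pgf each have a single quantified transcript, Vegfc-201 and Pgf-201, so no forms can be compared for them. Their junctions had medians of 51.5 and 17.0 reads per intron.

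Flt1 was the sole receptor with a quantified soluble transcript. Soluble Flt1 keeps the ligand-binding part, lacks the membrane span and kinase, and is known as a decoy that captures Vegfa and Pgf. Its transcript, Flt1-203, reads on past exon 13 (chr5:147639225-147639533) into the following intron and adds 31 residues of its own to the 657 it shares with Flt1-202. In the sequences, the end of exon 13 is in lower case, and the capitals mark the read-through up to its stop codon in the soluble transcript and the start of exon 14 in the full-length one.
Flt1 soluble transcript: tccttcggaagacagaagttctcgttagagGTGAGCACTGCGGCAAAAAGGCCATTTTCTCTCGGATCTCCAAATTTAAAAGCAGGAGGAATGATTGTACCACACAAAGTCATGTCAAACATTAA
Flt1 full-length transcript: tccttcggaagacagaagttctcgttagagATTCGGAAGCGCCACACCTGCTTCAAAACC

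Soluble Flt1-203 had 4.12 TPM in replicate 1 and 3.99 TPM in replicate 2. Full-length Flt1-202 had 23.9 and 26.4 TPM. The soluble share of both was 14.7% in replicate 1 and 13.1% in replicate 2, with a mean of 13.9 ± 1.09% (SD, n = 2). It stayed between 12.8% and 14.7% by read counts, by posterior mean TPM, over all Flt1 transcripts and in each library alone.

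Soluble Flt1 has no junction of its own, so junction reads can be set out only along the full-length transcript. The 12 introns shared with the soluble transcript had a median of 177 reads (58 to 368), and the 17 introns of the full-length transcript alone a median of 129 (40 to 464). The ranges overlapped widely. The last shared intron had 58 reads and the next, found in the full-length transcript alone, had 87. With reads this uneven between introns, a step of the size of the soluble share could be neither seen nor excluded.

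**Figure D4:**
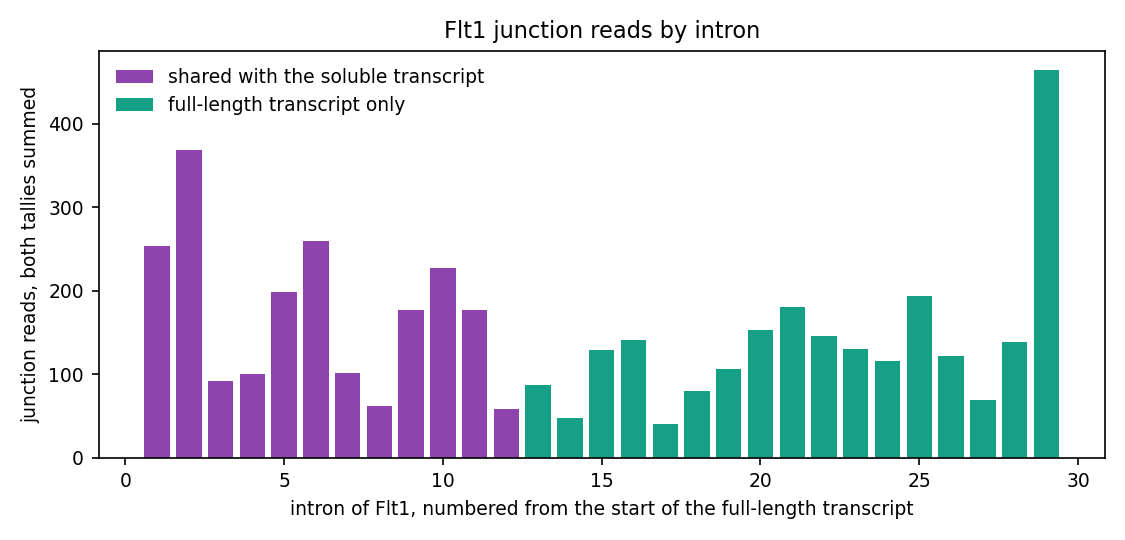
Junction reads over the 29 introns of full-length Flt1, both tallies of the list summed, with introns shared with the soluble transcript in purple and those of the full-length transcript alone in green. The 12 shared introns run from 58 to 368 reads and the other 17 from 40 to 464, with the highest at the last intron.

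Kdr and Flt4 each have 1 quantified coding transcript, a full-length one, and it took nearly all of the gene's TPM. Kdr-201 took 96.0% of the gene's TPM in replicate 1 and 96.3% in replicate 2, beside the retained-intron transcript Kdr-202 at 3.79 and 2.44 TPM. Flt4-201 took 97.7% in replicate 1 and 98.2% in replicate 2. No soluble transcript of either gene is in the annotation that was quantified, so their soluble forms are not measured here. Junction reads over the 29 introns of Kdr had a median of 402 and ran from 84 to 2049, and over the 29 introns of Flt4 they had a median of 130 and ran from 48 to 696.

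Nrp2 has alternative endings. The a and b forms share their extracellular part but differ in the membrane span and the tail inside the cell, and the tail of the a form binds the scaffold protein encoded by Gipc1. The choice is made after exon 15, which itself ends at a short or a 15-base longer position, and the a form may hold exon 16. The last 36 bases before each join are in lower case and the start of the next exon is in capitals.
Nrp2 short exon 15 to the b ending: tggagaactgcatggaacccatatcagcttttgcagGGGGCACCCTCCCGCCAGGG
Nrp2 long exon 15 to the b ending: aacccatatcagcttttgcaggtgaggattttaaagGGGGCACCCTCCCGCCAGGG
Nrp2 short exon 15 to exon 16: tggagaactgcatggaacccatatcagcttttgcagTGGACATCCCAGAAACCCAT
Nrp2 short exon 15 to the a ending: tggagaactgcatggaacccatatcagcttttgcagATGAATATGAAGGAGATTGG

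By TPM the b ending took 44.2% in replicate 1 and 42.8% in replicate 2, a spread of 1.02 percentage points (SD, n = 2). By junction reads it took 197 of 250 (78.8%, 73.2 to 83.7%), and the a ending 53 (21.2%, 16.3 to 26.8%). The leading transcript therefore differed. Nrp2-204, the a form without exon 16, had 39.1% of TPM in replicate 1 and 51.2% in replicate 2, and its own junction had 8 reads (3.20%, 1.39 to 6.21%). Nrp2-205, the b form with the short exon 15, had 20.1% and 22.7% of TPM, and its own junction had 178 reads (71.2%, 65.2 to 76.7%).

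Exon 16 showed the same kind of gap. It was in 22.8% of the a ending by TPM in replicate 1 and 10.5% in replicate 2, and in 44 of 53 junction reads (83.0%, 70.2 to 91.9%). The long exon 15 had 28.4% of TPM in replicate 1 and 20.05% in replicate 2, and 21 of 250 junction reads (8.40%, 5.27 to 12.6%). The b-ending transcript Nrp2-201 had 5.91 and 4.03 TPM and the exon 16 transcript Nrp2-202 had 3.03 and 1.21 TPM. The cause of these gaps was not tested.

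**Figure D5:**
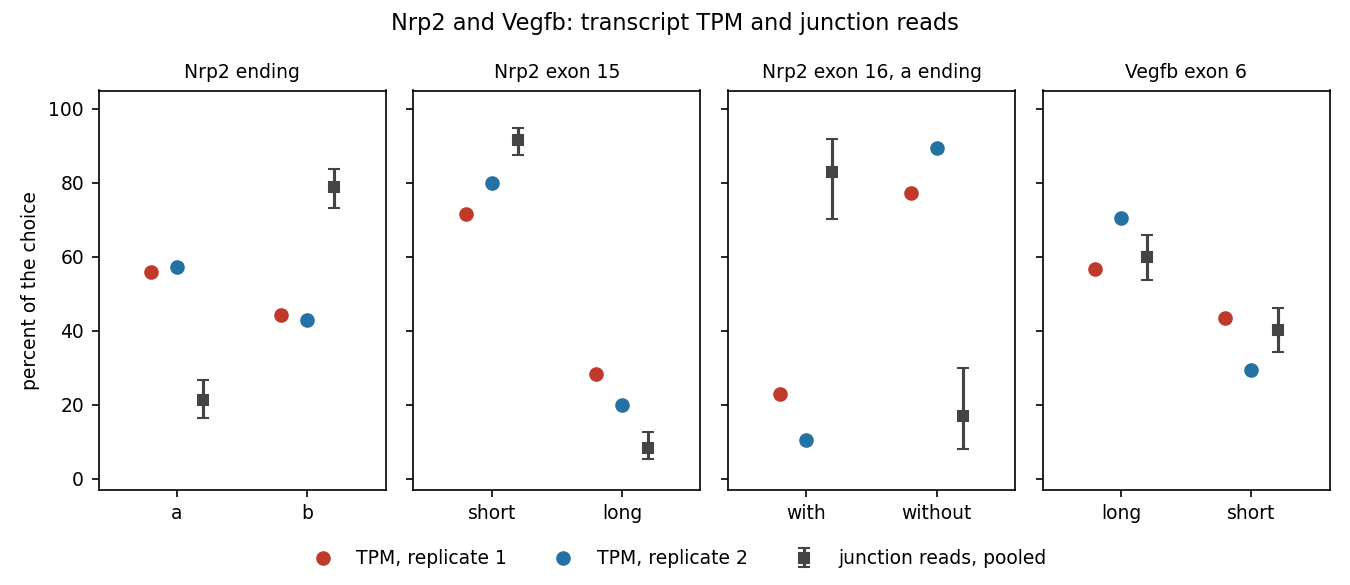
Share of each splice choice of Nrp2 (ending, exon 15 and exon 16) and of Vegfb (exon 6), in percent of that choice, from transcript TPM in replicate 1 (red) and replicate 2 (blue) and from pooled junction reads (grey squares, exact 95% intervals). The b ending of Nrp2 has 44.2% and 42.8% by TPM and 78.8% by junction reads, while for Vegfb the junction share of 59.9% lies between the libraries' 56.6% and 70.6%.

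Nrp1 has a single quantified transcript, Nrp1-201, so all of its TPM stands on 1 form. The junction list holds a second form. Of 5196 reads that ended at the start of exon 12, 1031 (19.8%, 18.8 to 20.95%) left exon 11 at a position 21 bases before its annotated end (chr8:128480885-128480989 on GRCm38), which keeps the reading frame. On the list's own build, mm9, that intron is chr8:131004869-131011796. The first sequence is the annotated join, with the bases that the short end leaves out in capitals, and the second is the join without them.
Nrp1 annotated exon end: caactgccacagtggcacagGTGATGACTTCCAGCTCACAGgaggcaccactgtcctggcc
Nrp1 short exon end: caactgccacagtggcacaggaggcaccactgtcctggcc

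Junction reads of Nrp1 were also uneven by position. Introns 1 to 13 had from 192 to 4165 reads each, while introns 14, 15 and 16, the last ones of the gene, had 66, 66 and 158. These ranges did not overlap. Soluble Nrp1 forms are known that end before the membrane span, but none was quantified here. Why reads were fewer at the last introns was not tested.

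Around the members, 61 genes of the pathway were set out in lists and all were detected in both libraries. Of these, 1 was 2-fold higher in replicate 1 and 4 were 2-fold higher in replicate 2, beside 4.45% and 2.21% of all tested genes. The list median was a log2 ratio of -0.15. Of 8 oxygen-sensing genes, 1 was 2-fold higher in replicate 1 and 1 was 2-fold higher in replicate 2. Epas1, a hypoxia-inducible factor subunit that has Vegfa among its known targets, had 833 TPM in replicate 1 and 732 TPM in replicate 2. Egln2 had 95.1 and 107 TPM and Egln1 36.5 and 32.1 TPM, both enzymes that mark those factors for breakdown. Egln3, a hypoxia-induced member of the same enzyme family, had 8.20 TPM in replicate 1 and 1.79 TPM in replicate 2. Hif3a had 1.46 and 5.21 TPM.

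Of 29 receptor partners and signalling genes, none was 2-fold higher in replicate 1 and 1 was in replicate 2, beside 4.45% and 2.21% of all tested genes. Ppp3r1, the regulatory subunit of calcineurin, had 26.4 TPM in replicate 1 and 52.4 TPM in replicate 2. Its log2 ratio from TMM-scaled counts, on which the call rests, was -1.22. The highest of the list were the small heat-shock protein gene Hspb1 (529 and 518 TPM), Cdh5, the cadherin of endothelial junctions, and the kinase gene Mapk3 (457 and 440 TPM). Of 10 genes that endothelial cells are known to raise on VEGF signals, 2 were 2-fold higher in replicate 2, where 2.21% of all tested genes were. With so few genes, such a count says little about the list. The median log2 ratio of the 10 genes was -0.52, and that of all tested genes 0.00. Esm1 had 5.05 TPM in replicate 1 and 11.3 TPM in replicate 2, and Nr4a2 had 1.63 and 3.32 TPM. Dll4, the Notch ligand of tip cells, had 101 TPM in replicate 1 and 106 TPM in replicate 2, Hlx had 64.0 and 72.5 TPM, and Nrarp had 40.8 and 64.5 TPM.

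None of the 13 neuropilin partners was 2-fold apart, where 6.66% of all tested genes were. The semaphorin gene Sema3f, whose product binds Nrp2, had 281 TPM in replicate 1 and 385 TPM in replicate 2. The plexin genes Plxnd1 and Plxna1 had 129 and 157 TPM in replicate 1, and 171 and 140 TPM in replicate 2. Beside the receptors, the 6 endothelial marker genes summed to 3504 TPM in replicate 1 and 3656 TPM in replicate 2, and the 6 capillary genes to 1750 and 2312 TPM. Most of the capillary sum was Plvap, with 999 TPM in replicate 1 and 1525 TPM in replicate 2. Car4 (168 and 133 TPM) and Ednrb (23.5 and 15.7 TPM) were higher in replicate 1, as Kdr was, and the other 4 capillary genes were higher in replicate 2. The 5 lymphatic genes, which bear on Flt4, Vegfc and Nrp2, summed to 159 and 162 TPM, with members that went opposite ways. Lyve1 had 32.8 TPM in replicate 1 and 57.1 TPM in replicate 2. It was 2-fold apart by TMM-scaled counts (log2 ratio -1.03) but not by TPM. Ccl21a (118 and 98.5 TPM), Mmrn1 (3.46 and 2.63 TPM), Reln (3.8 and 2.54 TPM) and the regulator Prox1 (1.09 and 0.71 TPM) had higher TPM in replicate 1. The part of cell make-up in the receptor levels was not tested.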

How the data were processed

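The 2 stranded poly-A+ libraries of whole lung formed 1 group, with group and replicate number taken from the labels. The authors deposited expected counts, TPM, FPKM, isoform percent, posterior mean TPM and the bounds of a TPM interval (handled as a signal, without a fixed total) per gene and transcript, on mm10 with GENCODE M4, per the file headers and lists. They also deposited a junction list on mm9, with read counts. For the aligner and the quantifier, nothing is given in the sources used here. Expected counts were rounded, and 97 spike-in rows and 26248 rows of other features (0 and 2 counts) were left out. From the files, ratios were computed with edgeR 4.0.16 (TMM, prior count 2, mean count of at least 50), DESeq2 1.42.0 supplied other size factors, and the ratio step was tested on simulated data. Members, lists and rules were chosen with earlier results of these data known. Named genes were the members, Vegfd, the 3 highest genes of each pathway list and those 2-fold apart, and transcripts at 5% of a gene's TPM. A soluble form was to lack the most hydrophobic window of 19 residues after residue 100. That rule was amended after the data were seen, since Nrp2 b forms lack that window but hold their own (mean hydropathy 2.62, minimum 1.6). Introns on mm9 were recognised by length and order in 156 of 161 annotated introns. Gene positions, exon structures and sequences are from GENCODE M21, in which 3 of the 33 transcripts have another length. Intervals are exact 95% binomial ones (Clopper-Pearson) and cover counting error only. PCR copies could not be told from separate molecules. The contig list was not used here.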

Additional observations from a re-analysis of the deposited data

Results flagged for a closer look

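Splice junctions of the members that no annotated transcript holds lay outside the transcript tables. Of these, 5 had at least 20 reads, the minimum set for listing them. The Nrp1 intron of 6928 bases, which makes the short end of exon 11, had 1031 reads. A second Nrp1 intron of 833 bases (chr8:131000195-131001027 on mm9) leaves exon 10 at its annotated end and had 36 reads. In Vegfa an intron of 88 bases (chr17:46154886-46154973 on mm9) inside the last exon had 39 reads, and one of 2081 bases (chr17:46165349-46167429 on mm9), which ends at the annotated start of exon 2, had 27 reads. In Vegfb an intron of 865 bases (chr19:7060977-7061841 on mm9) joins exon 1 to exon 3 and had 26 reads. No sample lacks these genes, so no background for such junctions was at hand.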

How the results depend on the processing

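Of 193 recomputed values, 76 bear on a main result, and 64 of these stayed within the spread of the libraries or within 1.5 times a count. Some of the 64 could not have moved. Leaving out 1 of 2 libraries always keeps a mean share within their SD, and FPKM gives the same shares as TPM within a library. The rule for counts also let a change of the main Vegfa transcript pass. The tally therefore does not measure how firm the results are. The mean Vegfa share of the ligands, 96.5%, was 95.1% with Vegfd added and 92.5% with the length of the longest coding transcript, and 95.8 to 97.2% in each library alone. By expected counts in place of TPM, mean Vegfa form shares were 6.25% for exon 6 only, 22.1% for exon 7 only, 42.2% for neither exon and 7.71% for retained introns, against 27.5%, 9.06%, 22.9% and 23.0% by TPM. By junction reads, exon 7 only was 44.9% of reads leaving exon 5, and exon 6 only was 0.966%, the product of the choices after exons 5 and 6. These are shares of a splice choice, while the TPM shares are of all Vegfa transcripts, retained-intron ones included. Vegfa-204 had 0.0345% by posterior mean TPM. Over all reads entering exon 8, the join from exon 6 had 0.519% and that from exon 5 had 7.42%. Under the soluble rule as first written, Nrp2 would have had a soluble share of 43.5%. This rule, the reads entering exon 8 and the longest coding length were alternatives chosen after seeing the data. Members 2-fold apart stayed at 0 under every scaling, prior and count minimum, and pathway genes at 4 or 5. The sign of the ratio of Vegfa and of Pgf turned with library size scaling (0.04 and 0.12) and with TPM (0.34 and 0.21). In each library alone, the soluble Flt1 share ran from 13.1 to 14.7%, the Kdr share from 52.5 to 63.9%, and the Vegfa forms from 19.3 to 35.8% (exon 6 only), 5.22 to 12.9% (exon 7 only), 9.28 to 25.7% (both) and 18.4 to 27.4% (neither). With replicate 1 left out, the main Vegfa transcript was Vegfa-201 in place of Vegfa-203. No paired analysis was possible because there is only 1 group and no test was run. With 2 libraries, the depth limits Pgf most, whose ratio has an interval of 0.778 to 1.27.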
